A study of Mus musculus with 20 samples.

Results

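Branched-chain amino acid catabolism was described here through 10 enzyme genes, Bcat2, Bckdha, Bckdhb, Dbt, Bckdk, Ivd, Mccc1, Mccc2, Hibch and Hibadh, out of 54532 genes in the count table. All 10 were found in the table and all 10 passed the filter on low counts, which kept 15984 genes. The genes were chosen on measured values of these libraries, with the difference between the groups already in view. The difference is therefore given below as a description, with no p-value for any of the 10 enzymes. Whether an enzyme passes the threshold is a description too.

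RNA was sequenced from condylar heads of the temporomandibular joint (TMJ, the joint of the lower jaw) of mice, collected with part of the subchondral bone. All animals carried Acan-CreERT2, a Cre recombinase that tamoxifen activates and the aggrecan promoter drives, chiefly in chondrocytes, together with 2 floxed alleles of Loxl2, which codes for the collagen-crosslinking enzyme lysyl oxidase-like 2. Injections began at 6 months of age, and joints were collected 4 months later. The 8 Control libraries came from animals given vehicle, 4 males and 4 females, and the 12 LOXL2_KO libraries from animals given tamoxifen at 75 mg/kg, 6 males and 6 females. The injections were given daily for 5 days and then monthly. Tamoxifen and the deletion cannot be told apart in this design, and the sex of each library is not known here.

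Leucine, isoleucine and valine are broken down in mitochondria by a common route. A branched-chain aminotransferase moves the amino group to 2-oxoglutarate, and the branched-chain ketoacid dehydrogenase complex then decarboxylates the keto acid in the committed step. The kinase BCKDK phosphorylates and inactivates that complex, and the phosphatase PPM1K reverses this. Each amino acid afterwards has its own chain of enzymes, leading to acetyl-CoA, acetoacetate or succinyl-CoA. Skeletal muscle has high aminotransferase activity and is a main site of the first step.

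Loxl2 itself was not lower in the libraries labelled LOXL2_KO. Its level, in counts scaled to library size (CPM), ran from 16 to 103 with a median of 70.3 in Control and from 28.8 to 126 with a median of 110 in LOXL2_KO. The log2 fold change, LOXL2_KO minus Control, was 0.64 (SE 0.28, edgeR quasi-likelihood adjusted p = 0.10), and 11 of 12 LOXL2_KO libraries lay above the Control median. Without LOXL2_KO library 12, its lowest, the value was 0.74 and passed the threshold (edgeR adjusted p = 0.031). The counts are per gene and do not separate the floxed exons from the others, so they do not show whether these were lost, and every direction below follows the labels. Chondrocyte markers were present but uneven. Their summed level ran from 67.5 to 4216 CPM in Control and from 546 to 6563 CPM in LOXL2_KO, and Matn3 and Cnmd were under a mean of 1 CPM. Control libraries 6 and 8 stood apart as the lowest Control libraries in these markers, with mean log2 CPM of 3.45 and 1.74 where the other Control libraries held 6.23 or more. LOXL2_KO library 5, the lowest of its group, was near them at 3.98. Skeletal muscle transcripts were abundant in all libraries, with Acta1 (skeletal actin) at 24334 ± 11535 CPM in Control (SD, n = 8) and 17776 ± 5415 CPM in LOXL2_KO (SD, n = 12).

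Sequence upstream of the transcription start is shown for the leucine branch, the only step with 3 of the 10 enzymes outside the dehydrogenase complex, since all 3 genes held the CCAAT box there. The sequences are RefSeq promoter windows on GRCm38.p6, printed 5′ to 3′ on the gene's strand up to the annotated gene start, and capitals mark CCAAT or its reverse complement ATTGG. Ivd (isovaleryl-CoA dehydrogenase, the first enzyme of leucine breakdown after the shared step) lies on chromosome 2 at chr2:118861744-118861953 on the plus strand for the part shown. Mccc1 and Mccc2, the biotin-bearing and the second subunit of 3-methylcrotonyl-CoA carboxylase, lie on the minus strand at chr3:36000679-36000928 and chr13:100015640-100015889.
Ivd: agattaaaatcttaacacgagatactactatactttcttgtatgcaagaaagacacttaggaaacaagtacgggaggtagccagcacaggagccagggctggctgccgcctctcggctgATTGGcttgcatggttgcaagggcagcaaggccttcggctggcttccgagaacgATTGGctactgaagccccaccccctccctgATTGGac
Mccc1: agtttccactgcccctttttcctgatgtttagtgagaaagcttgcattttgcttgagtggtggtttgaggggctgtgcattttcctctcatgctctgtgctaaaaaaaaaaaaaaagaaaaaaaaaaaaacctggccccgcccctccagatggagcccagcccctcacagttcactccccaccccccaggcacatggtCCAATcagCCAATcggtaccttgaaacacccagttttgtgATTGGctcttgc
Mccc2: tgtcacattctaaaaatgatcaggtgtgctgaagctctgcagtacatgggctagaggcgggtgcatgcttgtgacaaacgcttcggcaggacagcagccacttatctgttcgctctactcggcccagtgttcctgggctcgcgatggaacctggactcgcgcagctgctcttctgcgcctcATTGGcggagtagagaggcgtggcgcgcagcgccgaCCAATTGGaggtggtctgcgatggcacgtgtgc
Each of these stretches held 3 matches. Those of Mccc2 included CCAATTGG, where a match on either strand overlaps the other. An exon of the antisense gene Mccc1os reaches into the Mccc1 stretch next to its start. Over the full windows of 250 bases before the start, CCAAT on either strand was found for 6 of the 9 enzymes with a window. These were Ivd, Mccc1, Mccc2, Bckdhb, Bckdk and Hibadh. Bcat2 and Bckdhb had 2 windows each. Counted by window, CCAAT was in 6 of 11 for these enzymes and in 33.8% of all 32851 windows. The GC box GGGCGG, searched the same way, was found for 4 of the 9, in 4 of 11 windows, and in 32.7% of all windows. The motif AAGGTCA, known from estrogen-related receptors, was found for 0 of the 9 and in 4.08% of all windows. The KLF-type box CCACCC was found for 3 of the 9, in 3 of 11 windows, and in 28.1% of all windows. A match is a run of letters and no evidence of binding. Dbt had no window.

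All 10 enzymes had lower mean levels in LOXL2_KO than in Control, from 54.0% of the Control mean for Ivd to 80.2% for Hibch. In edgeR's quasi-likelihood test across all genes, 9 of the 10 had an adjusted p under 0.05 and were lower, all but Hibch. Over all 15984 tested genes, 23% passed, 11% lower and 12% higher in LOXL2_KO. The median log2 fold change of the 10 enzymes was −0.74, against −0.02 over all tested genes. For 7 of the 10, every LOXL2_KO library lay below the Control median, which held for 5.59% of all tested genes. The groups overlapped for each of the 10. Library totals ran from 11153820 to 27045668 reads, and the lowest count of any of the 10 in a library was 165, for Bckdha. In whole-tissue RNA, fewer cells of a type and less RNA per cell cannot be told apart.

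**Figure D1:**
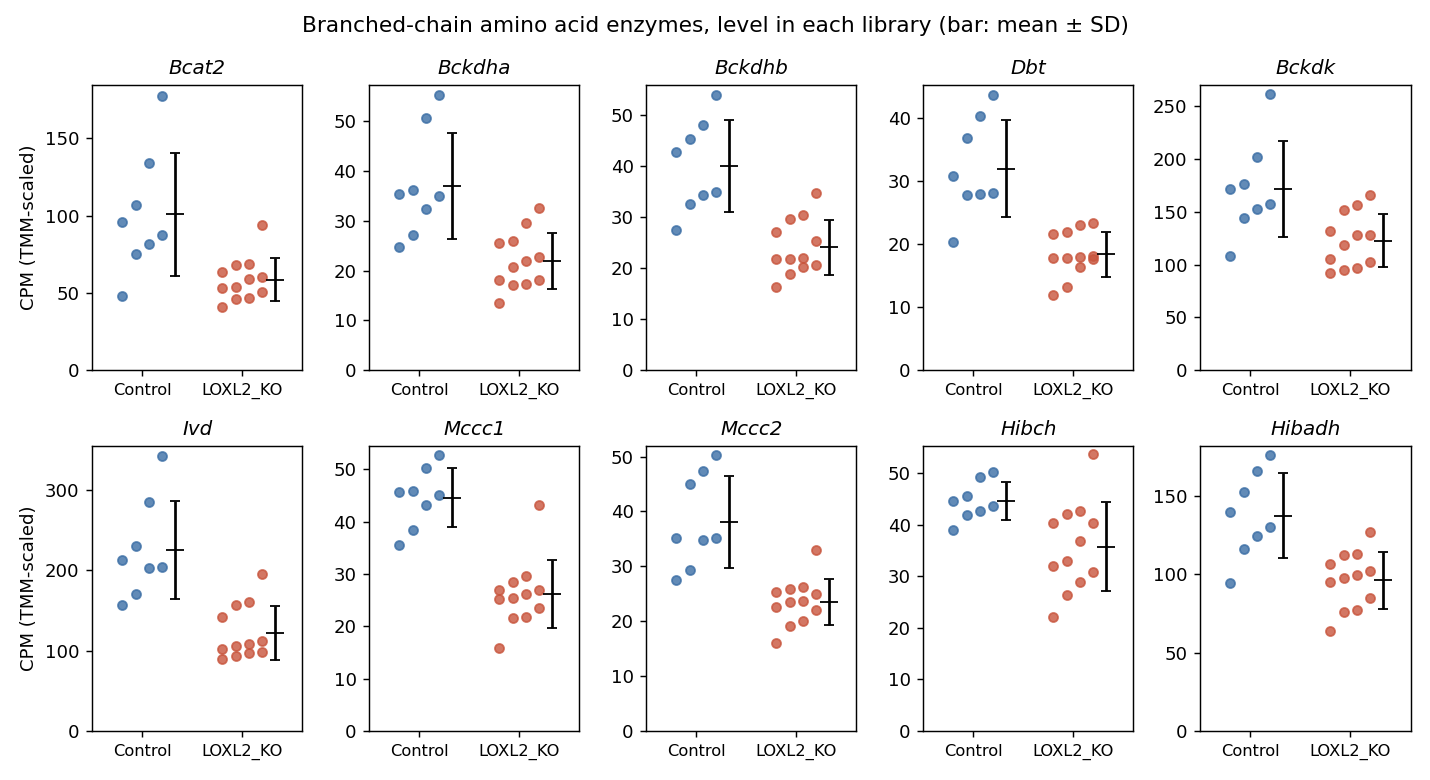
Level of each enzyme gene in the 8 Control (blue) and 12 LOXL2_KO (red) libraries, in CPM after TMM scaling (y axis, from 0), with points spread sideways for sight and a black bar for the mean ± SD. LOXL2_KO points sit mostly under the Control points, with overlap in every panel, and the Hibch panel shows the smallest shift, 44.6 against 35.8 CPM.

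Bcat2, the mitochondrial aminotransferase that starts the route, had 48.1, 91.8 and 178 CPM as its lowest, median and highest Control values. In LOXL2_KO these were 40.8, 56.5 and 94.0 CPM. The spread in Control was wide, since Control library 8 held the highest value and library 1 the lowest, and 11 of 12 LOXL2_KO libraries lay below the Control median. Mean levels were 101 ± 39.7 CPM (SD, n = 8) and 58.7 ± 14.1 CPM (SD, n = 12). On the log2 scale Bcat2 had a fitted fold change of −0.78 (SE 0.18). Bcat1, the cytosolic aminotransferase, was measured at a far lower level and in the opposite direction, with 4.91 ± 2.95 CPM in Control and 9.83 ± 4.03 CPM in LOXL2_KO, and did not pass the test (log2 fold change 0.99, SE 0.42, edgeR adjusted p = 0.091). In Control library 8 it had 1 count. Per kilobase of the annotated exons, the median ratio of Bcat2 to Bcat1 within a library was 38.8 in Control and 12.6 in LOXL2_KO. Its ranges, 13.2 to 5548 in Control and 8.05 to 75.4 in LOXL2_KO, overlap.

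The 3 subunit genes of the dehydrogenase complex were lower by nearly the same amount. Bckdha, the E1 alpha subunit and the target of the kinase, had 24.7, 35.2 and 55.2 CPM as lowest, median and highest in Control and 13.5, 21.3 and 32.5 CPM in LOXL2_KO. All 12 LOXL2_KO libraries lay below the Control median and 8 of them below the lowest Control library. The log2 fold change was −0.75 (SE 0.16). B3gnt8 on the opposite strand shares exon sequence with Bckdha, with 2216 counts in all libraries against 10184 for Bckdha, and since the strand setting of the counting is not given in the sources used here, reads from the shared stretch cannot be told apart.

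Bckdhb, the E1 beta subunit, had 27.5, 38.8 and 54.1 CPM in Control and 16.4, 22.0 and 34.8 CPM in LOXL2_KO, in the same order of lowest, median and highest. Its log2 fold change was −0.73 (SE 0.14), and 9 of 12 LOXL2_KO libraries lay below the lowest Control library. Dbt, the E2 subunit that carries the lipoyl arm, had 20.3, 29.4 and 43.7 CPM in Control and 12.0, 17.9 and 23.4 CPM in LOXL2_KO. Only Control library 7, at 20.3 CPM, fell inside the LOXL2_KO range for Dbt, and the log2 fold change was −0.80 (SE 0.14). The ratio of Bckdha to Bckdhb per kilobase of exon was alike in both groups, with medians of 0.913 in Control and 0.837 in LOXL2_KO and ranges of 0.722 to 1.03 and 0.638 to 1.14. Dld, the E3 subunit that the pyruvate and 2-oxoglutarate dehydrogenase complexes share, was also lower (log2 fold change −0.47, SE 0.11, edgeR adjusted p = 0.0060).

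The kinase gene Bckdk had the smallest difference among the 5 enzymes of the first steps, though whether it differed from the others was not tested. Its lowest, median and highest values were 108, 164 and 262 CPM in Control and 91.9, 123 and 166 CPM in LOXL2_KO. Of the 12 LOXL2_KO libraries, 11 lay below the Control median and 5 below the lowest Control library, and the log2 fold change was −0.48 (SE 0.14). Without Control library 4 the value was −0.44, and without Control library 8 it was −0.36, and in both fits Bckdk no longer passed the threshold. The ratio of Bckdk to Bckdha per kilobase of exon had a median of 2.42 in Control and 2.86 in LOXL2_KO, with ranges of 2.05 to 2.99 and 2.37 to 3.90 that overlap. Ppm1k, the phosphatase gene, was lower as well, at 25.6 ± 6.57 CPM in Control and 16.4 ± 4.37 CPM in LOXL2_KO (log2 fold change −0.65, SE 0.17, edgeR adjusted p = 0.0095). The ratio of Bckdk to Ppm1k had medians of 11.5 and 11.1.

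In the leucine branch, Ivd had the largest difference of the 10 enzymes. Its lowest, median and highest values were 156, 208 and 342 CPM in Control and 90.1, 107 and 195 CPM in LOXL2_KO. All 12 LOXL2_KO libraries lay below the Control median, 9 lay below the lowest Control library, and LOXL2_KO libraries 5, 9 and 12 made up the part that overlapped. The means were 225 ± 61.0 CPM in Control and 122 ± 33.4 CPM in LOXL2_KO, and the log2 fold change was −0.89 (SE 0.16).

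Mccc1 had 35.6, 45.4 and 52.7 CPM in Control and 15.9, 25.9 and 43.2 CPM in LOXL2_KO. Here 11 of 12 LOXL2_KO libraries lay below the lowest Control library, and LOXL2_KO library 5 was the exception. The log2 fold change was −0.76 (SE 0.13). Mccc2 had 27.5, 35.2 and 50.3 CPM in Control and 16, 23.5 and 33 CPM in LOXL2_KO, again with 11 of 12 below the lowest Control library, and a log2 fold change of −0.69 (SE 0.13). The antisense genes Gm15952 and Mccc1os overlap exons of Mccc1, with 172 and 154 counts in all libraries against 12281 for Mccc1. Auh, the methylglutaconyl-CoA hydratase of the next step, was lower (log2 fold change −0.38, SE 0.12, edgeR adjusted p = 0.023). It lost its call without Control library 4, without Control library 8 and with library totals alone as scaling.

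The valine branch held the smallest difference of the 10 enzymes, that of Hibch. Hibch, the hydrolase that frees 3-hydroxyisobutyrate from CoA, had 39.0, 44.1 and 50.2 CPM in Control and 22.1, 34.9 and 53.8 CPM in LOXL2_KO. Control values were tightly grouped, and LOXL2_KO values ran from below the lowest to above the highest of them. The means were 44.6 ± 3.72 CPM and 35.8 ± 8.65 CPM, with a log2 fold change of −0.32 (SE 0.12) that did not pass the threshold. Without LOXL2_KO library 12, its highest, the value was −0.38 and passed. Hibadh, the dehydrogenase of the next step, had 94.3, 135 and 176 CPM in Control and 63.6, 98.6 and 126 CPM in LOXL2_KO, with all 12 LOXL2_KO libraries below the Control median and a log2 fold change of −0.51 (SE 0.13). Aldh6a1, which converts the product of Hibadh to propionyl-CoA, was lower (log2 fold change −0.75, SE 0.15, edgeR adjusted p = 0.0026).

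The other genes of the pathway were tested in the same fit. Of 36 of them, 22 were lower and 3 higher at an edgeR adjusted p under 0.05, with a median log2 fold change of −0.41. Of the 15 enzymes of the route among these 36, 12 were lower and 0 higher. The 3 of the isoleucine branch all passed, with Acadsb (short/branched-chain acyl-CoA dehydrogenase) at −0.66 (SE 0.13, adjusted p = 0.0021), Acat1, the thiolase of the last step, at −0.49 (SE 0.11, adjusted p = 0.0041) and Hsd17b10, the dehydrogenase before it, at −0.31 (SE 0.11, adjusted p = 0.047), as did Echs1, a hydratase of valine and isoleucine breakdown, at −0.58 (SE 0.12, adjusted p = 0.0024). So did all 4 genes from propionyl-CoA to succinyl-CoA, Pcca, Pccb, Mcee and Mmut, with values from −0.66 to −0.43. Of 20 fits that each left out 1 library, 5 kept the call of Hsd17b10 and 17 that of Mcee, and all 20 kept those of Acadsb, Acat1, Echs1, Pcca, Pccb and Mmut. Hsd17b10 and Mcee also lost their calls with library totals alone as scaling. Acad8, the isobutyryl-CoA dehydrogenase of the valine branch, had −0.20 (SE 0.10) and did not pass.

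Among the 9 cofactor genes, 6 were lower: Hlcs, which attaches biotin to carboxylases, Lias, which makes lipoate, and the cobalamin genes Mmaa, Mmab, Mmachc and Mmadhc, with log2 fold changes from −0.53 to −0.33. Mmadhc kept its call in 8 of the 20 fits that left out 1 library, and Mmadhc and Hlcs lost theirs with library totals alone. Btd, which recycles biotin, was higher (log2 fold change 0.52, SE 0.15, edgeR adjusted p = 0.015). Of 6 transport genes, 2 were higher and 1 was lower. Slc3a2, the heavy chain of the large neutral amino acid transporters, was higher in all 12 LOXL2_KO libraries than the Control median, at 39.9 ± 6.41 CPM in Control and 54.5 ± 10.7 CPM in LOXL2_KO (log2 fold change 0.45, SE 0.12, adjusted p = 0.0090). Slc43a2 was higher (0.40, SE 0.14, adjusted p = 0.039) and Slc43a1 lower (−0.47, SE 0.17, adjusted p = 0.045), but of 20 fits that each left out 1 library only 10 kept the call of Slc43a2 and 7 that of Slc43a1. Slc25a44, the mitochondrial carrier of these amino acids, had −0.19 (SE 0.09, adjusted p = 0.13). Of 6 transcriptional regulators, 3 were lower. These were Klf15, a factor known to control genes of the pathway in muscle (log2 fold change −0.69, SE 0.20, adjusted p = 0.019), and Ppargc1a and Ppargc1b, coactivators of mitochondrial genes, at −0.66 and −0.42. Of the 20 fits that left out 1 library, 19 kept the call of Klf15, 12 that of Ppargc1a and 5 that of Ppargc1b. All 3 lost their calls when Control libraries 6 and 8 were left out together, and Ppargc1a and Ppargc1b also with library totals alone.

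**Figure D2:**
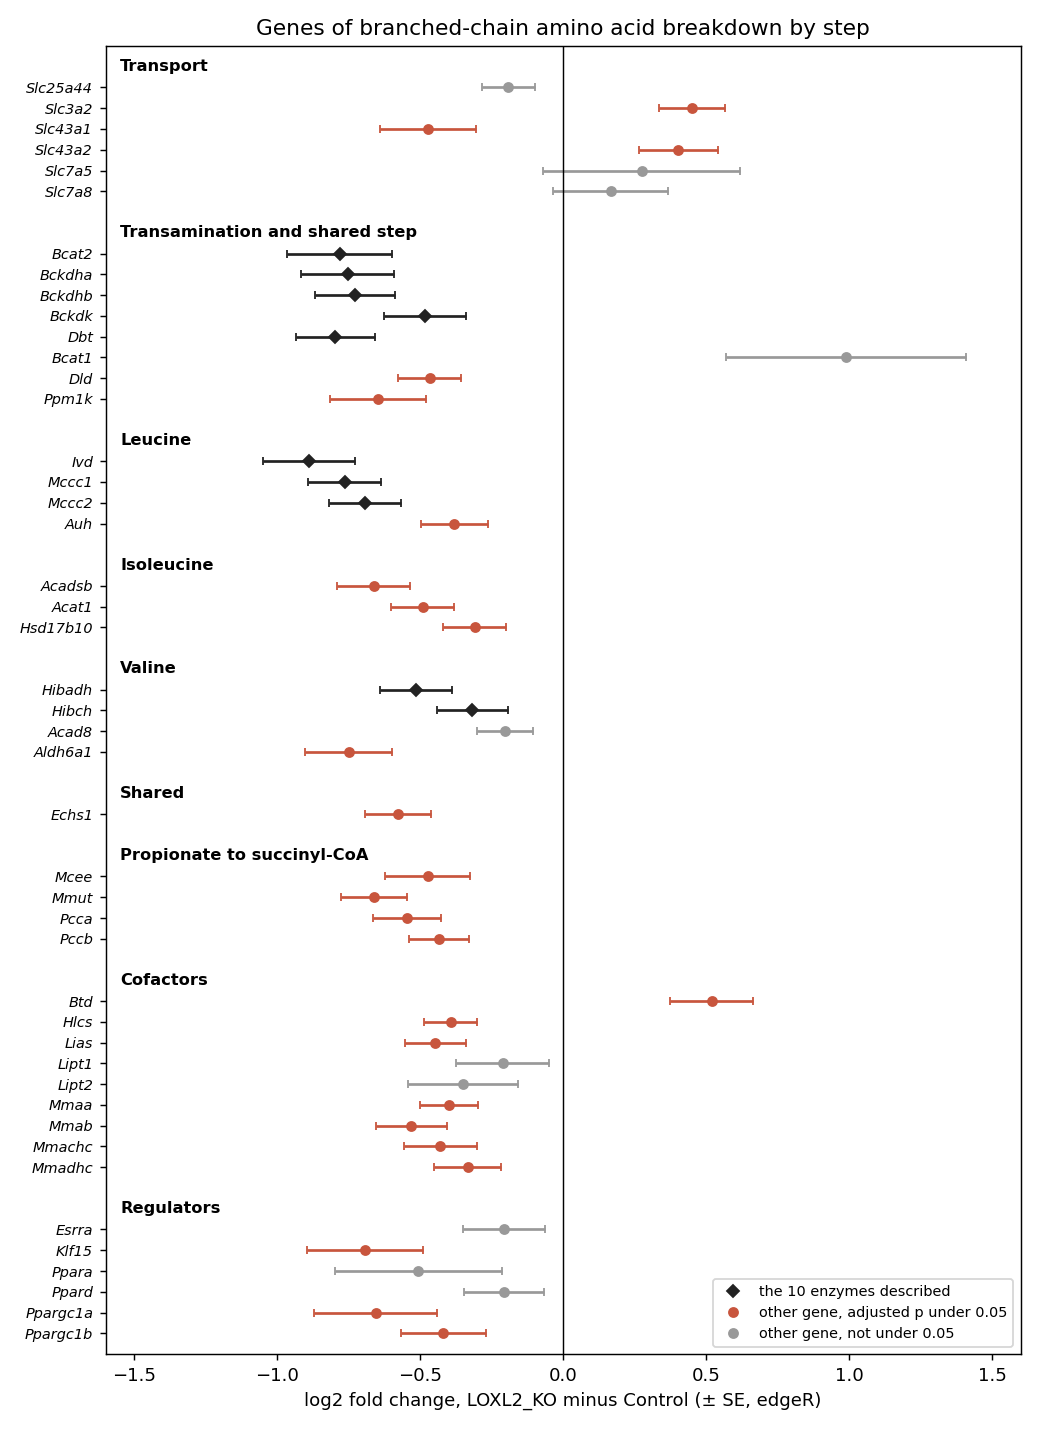
Log2 fold change, LOXL2_KO minus Control, with its SE (x axis) for the 10 enzymes (black diamonds) and 35 of the 36 other pathway genes (circles, red where the edgeR adjusted p was under 0.05), by step of the pathway. All enzymes of the route but Bcat1 lie left of 0, while Btd, among the cofactor genes, and 4 of the 6 transport genes lie right of it.

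Per kilobase, and so comparable between genes, the order of the levels depended for some genes on which transcript length was used. Over both lengths (all annotated exons, or the transcript with the longest coding sequence), the order Ivd, Bcat2, Bckdhb, Bckdha, Mccc2, Dbt held from high to low in both groups. With the coding transcript, Control levels were 61.5 ± 16.6 CPM per kilobase for Ivd and 56.9 ± 22.4 for Bcat2, which do not differ beyond their spread. Bckdhb had 27.1 ± 6.10, Bckdha 19.5 ± 5.60 and Mccc2 17.9 ± 3.97, neighbours whose SDs overlap, and Dbt had 9.70 ± 2.34. Bckdk, with 50.4 ± 13.3 CPM per kilobase by the coding transcript and 46.5 ± 12.3 by all exons, stood above the E1 and E2 subunits Bckdha, Bckdhb and Dbt in both groups, and Dld stood above Bckdk. Hibadh moved most with the choice, from 75.2 ± 14.8 to 13.5 ± 2.65 CPM per kilobase.

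From library to library within a group, most of the enzymes varied together, which does not use the difference between groups. After the group mean was subtracted from log2 CPM, the median Pearson r over the 45 pairs was 0.65 over 20 libraries, with a range of 0.15 to 0.91, against 0.003 over all pairs of tested genes. The libraries share their depth, scaling and tissue makeup, so the value is a description. With library totals alone as scaling it was 0.40. Bcat2 and Bckdhb had the highest r, 0.91, and Bcat2 and Ivd had 0.90. Hibch was the least like the rest, with a median r of 0.38, followed by Dbt at 0.51 and Mccc1 at 0.53, while each of the other 7 had 0.74 or more. The shared variation was not particular to these enzymes. Within groups, citric acid cycle genes had r with the enzymes' mean from 0.72 (Suclg2) to 0.92 (Sdha). Genes of fatty acid beta-oxidation had 0.54 (Eci1) to 0.83 (Hadhb). The pyruvate dehydrogenase list, with kinases and phosphatases, ran from −0.64 (Pdk3) to 0.89 (Pdhx). Breakdown of other amino acids ran from −0.615 (Aldh7a1) to 0.92 (Gcdh).

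**Figure D3:**
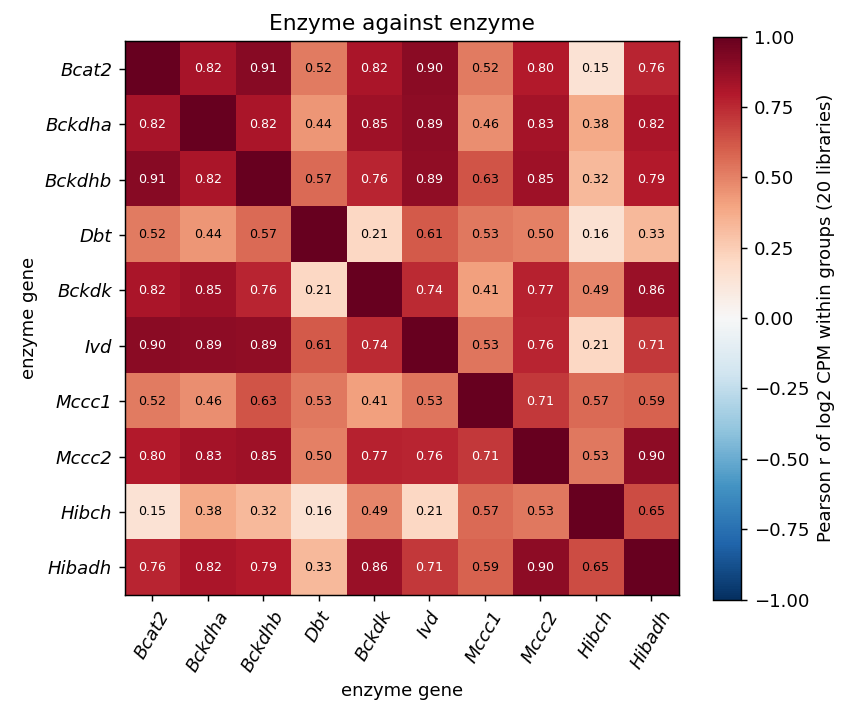
Pearson r of log2 CPM between each pair of the 10 enzymes over 20 libraries after subtraction of the group mean (colour scale from −1 to 1, with each value written in its cell). The Hibch and Dbt rows and columns are the palest, with values down to 0.15 and 0.16, and the darkest cell is that of Bcat2 and Bckdhb at 0.91.

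The same libraries stood at the ends for many of the enzymes. Control library 8 was the highest Control library for 7 of the 10 and Control library 1 the lowest for 7. In LOXL2_KO, library 5 was the highest for 6 and library 8 the lowest for 5. The 5 genes outside the 10 whose within-group pattern was most like their mean were Akr1b10 (r = 0.94 over 20 libraries), Phb (0.94), Adsl (0.93), Hrc (0.93) and Isca1 (0.93). Hrc codes for a calcium-binding protein of the muscle sarcoplasmic reticulum, Phb for prohibitin and Isca1 for an iron-sulfur assembly factor, both mitochondrial. Hrc had 780 ± 200 CPM in Control and 446 ± 138 CPM in LOXL2_KO.

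Most markers of skeletal muscle moved with the enzymes. Within groups, their r with the enzymes' mean ran from −0.13 for Myh2 to 0.88 for Tnnt3, with Tnnc2 at 0.39 and Myh4 at 0.40. Myh4 ran from 8.11 to 20036 CPM in Control, so the markers did not all vary alike. Of 12 muscle markers, 5 were lower and 0 higher in LOXL2_KO at an edgeR adjusted p under 0.05, and their summed level ran from 57563 to 195315 CPM in Control and from 40894 to 102792 CPM in LOXL2_KO. Tnnc2 was under a mean of 1 CPM. Their mean log2 CPM was 11.3 ± 0.72 in Control and 10.7 ± 0.56 in LOXL2_KO (exact two-sided permutation p = 0.034, adjusted p = 0.086 over 14 marker lists). In the 8 Control libraries this muscle score and the mean log2 CPM of the 10 enzymes had a Pearson r of 0.93 and a Spearman rho of 0.88, and r was 0.75 without the 2 libraries farthest from the median muscle score. In the 12 LOXL2_KO libraries, r was 0.62, rho was 0.57, and r was 0.49 without the 2 farthest. No p is given for these relations, since the enzymes were chosen with these data in view.

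By gene, the r with the muscle score over 20 libraries within groups was highest for Bckdk, 0.89, and Bcat2, 0.81. It was lowest for Dbt, 0.22, Hibch, 0.31, and Mccc1, 0.35. The 5 with the largest differences between groups were Dbt and Mccc1, and Ivd, Bcat2 and Bckdha, at r = 0.75, 0.81 and 0.76. Hibch had the smallest difference.

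Osteoclast markers moved the opposite way. All 10 were higher in LOXL2_KO at an edgeR adjusted p under 0.05, with a summed level of 183 to 1485 CPM in Control and 665 to 8093 CPM in LOXL2_KO (exact permutation adjusted p = 0.0011 for their mean log2 CPM). Of the 10, Calcr had 0 counts in Control library 4 and the lowest mean level in LOXL2_KO. The osteoclast score and the mean of the 10 enzymes had r = −0.70 and rho = −0.83 in Control (−0.78 without the 2 farthest libraries), and r = −0.53 and rho = −0.42 in LOXL2_KO (−0.19 without the 2 farthest). Osteoblast and osteocyte, macrophage and mast cell markers were higher in LOXL2_KO as well (exact permutation adjusted p = 0.034, 0.00078 and 0.014), while the other 10 of the 14 lists had adjusted p from 0.086 to 0.88.

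**Figure D4:**
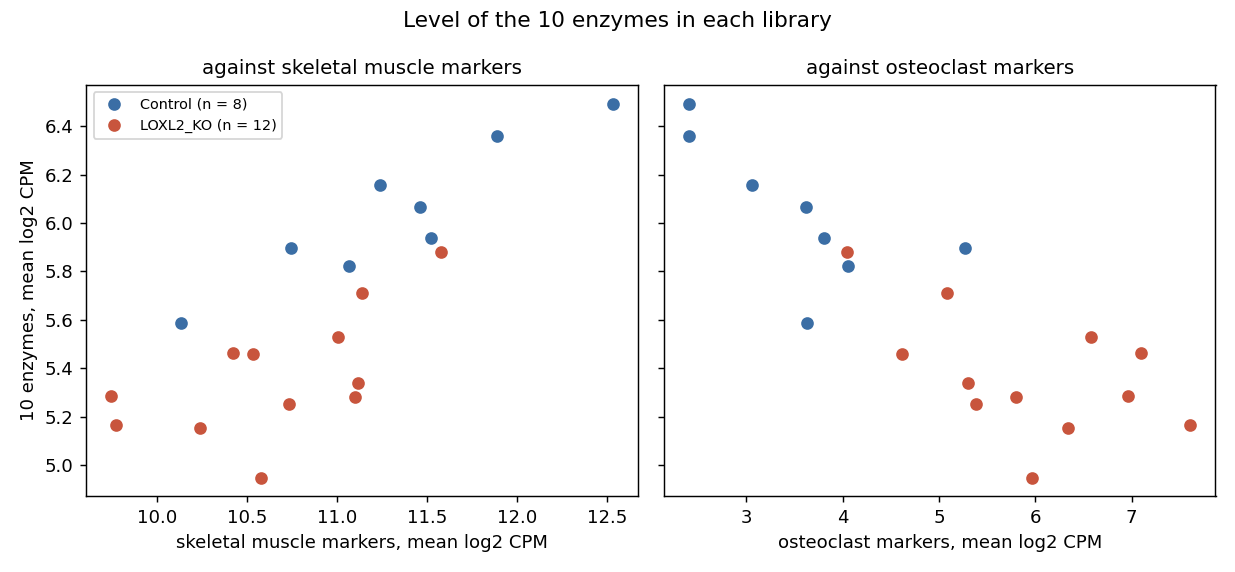
Mean log2 CPM of the 10 enzymes (y axis) in each Control (blue, n = 8) and LOXL2_KO (red, n = 12) library against the mean log2 CPM of skeletal muscle markers (left) and osteoclast markers (right). Within each colour the points rise to the right on the left side and fall on the right side, and at a like muscle score most LOXL2_KO points lie below the Control points.

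With the muscle score as a covariate in the edgeR fit, the median log2 fold change of the 10 enzymes was −0.46, and 6 of the 10 were lower at an adjusted p under 0.05 (Bckdha, Bckdhb, Dbt, Ivd, Mccc1 and Mccc2), where 2.91% of all tested genes were. Dbt was at −0.70 (SE 0.16), Mccc1 at −0.65 (SE 0.13) and Ivd at −0.58 (SE 0.12). Bcat2 moved from −0.78 to −0.34 (SE 0.13) and Bckdk from −0.48 to −0.16 (SE 0.09). Among the regulators, Klf15 moved from −0.69 to −0.45 (SE 0.21), and neither it nor Ppargc1a or Ppargc1b passed in this fit. With the osteoclast score as a covariate the median was −0.32, from −0.59 for Dbt to 0.0021 for Bckdk, and 0 of the 10 passed, where 0% of all tested genes were called lower. In that edgeR fit 0 genes passed in either direction and 1299 had an unadjusted p under 0.05. Of the variance of the score over the 20 libraries, 22.7% lay between the groups for muscle and 59.0% for osteoclast, so much of the osteoclast score cannot be told apart from the group. Without Control libraries 6 and 8, an alternative added after the data were seen, 8 of the 10 were lower at an adjusted p under 0.05, where 4.15% of all genes tested were, and the median was −0.61. That fit kept LOXL2_KO library 5, whose chondrocyte score of 3.98 was also low, so it left out such libraries from Control only. The 10 were chosen with the group difference in view, so their counts beside the shares of all genes are descriptions in each of these fits. The muscle score weighs its markers alike, among them the wide-ranging Myh4 and the scarce Tnnc2, so a like score need not mean a like share of muscle. The part that the share of muscle or bone in the dissected tissue has in the enzymes' levels was not tested.

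**Figure D5:**
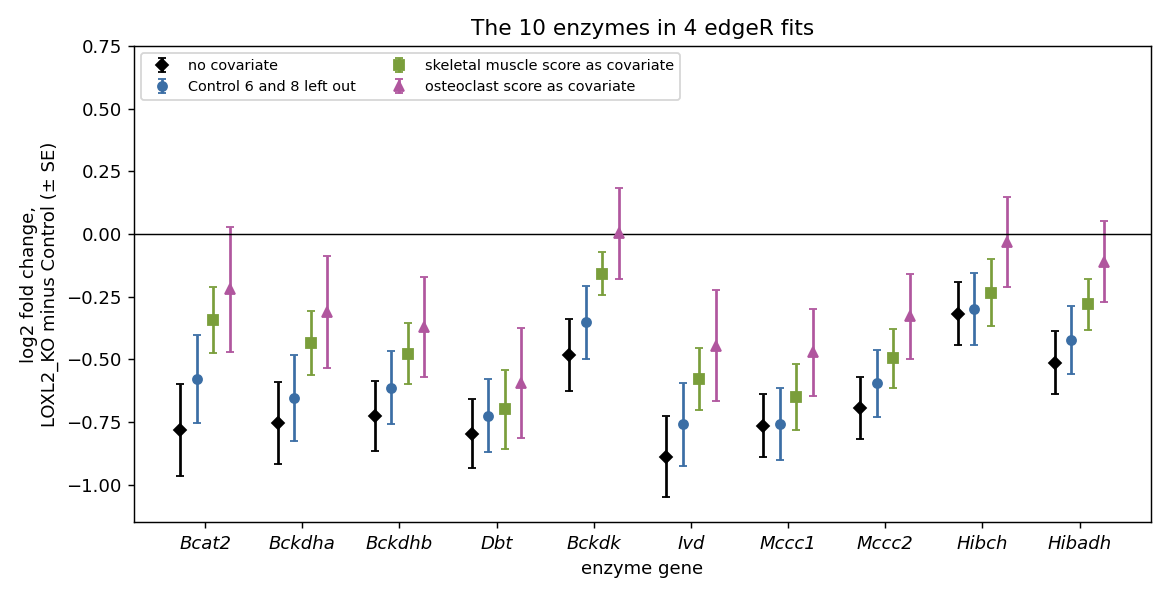
Log2 fold change, LOXL2_KO minus Control, with its SE (y axis) for the 10 enzymes in 4 edgeR fits: without covariate (black diamonds), without Control libraries 6 and 8 (blue circles), with the skeletal muscle score (green squares) and with the osteoclast score as covariate (purple triangles). Dbt and Mccc1 are the lowest in both fits with a covariate, at −0.70 and −0.65 with the muscle score, and Bckdk reaches 0.0021 with the osteoclast score.

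Other mitochondrial routes in the same joints were lower too. Of 16 citric acid cycle genes 14 were lower and 0 higher, with a median log2 fold change of −0.45, and of 16 genes of fatty acid beta-oxidation 14 were lower and 0 higher, with a median of −0.66. In the pyruvate dehydrogenase complex with its kinases and phosphatases, 6 of 10 were lower and 1 was higher, with a median of −0.42. There Pdk4, a kinase induced by fasting, was at −1.04 (SE 0.25, edgeR adjusted p = 0.0061) and Pdk3 at 1.26 (SE 0.29, adjusted p = 0.0050). Of 15 tested genes that break down other amino acids, 5 were lower and 1 higher, with a median of −0.35. Of these 4 medians, that of beta-oxidation lay closest to the −0.74 of the 10 branched-chain enzymes, and no test of a difference between these lists was made. Named by the lowest p in each list, Cpt2 and Hadhb of beta-oxidation were at −0.70 (SE 0.12, adjusted p = 0.0014) and −0.67 (SE 0.12, adjusted p = 0.0014), Sucla2 and Suclg2 of the citric acid cycle at −0.64 (SE 0.14, adjusted p = 0.0031) and −0.52 (SE 0.10, adjusted p = 0.0016), and Oat and Gcdh, which break down ornithine and glutaryl-CoA, both at −0.64 (SE 0.14, adjusted p = 0.0034 and 0.0037).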

How the data were processed

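RNA-seq of 8 Control and 12 LOXL2_KO TMJ libraries was available as one table of raw counts per Ensembl gene, which the authors deposited. Per the methods, reads were trimmed, aligned to mm10 and counted with featureCounts. The aligner, the annotation, the strand setting and the treatment of multimapping reads are not given in the sources used here. Groups came from the labels. The labels do not tie libraries to separate animals, so p-values measure the spread between these libraries.

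Gene symbols and lengths came from GENCODE M21 (GRCm38), which matched 54495 of 54532 genes. Counts were filtered with filterByExpr, scaled by TMM and tested with edgeR 4.0.16 (quasi-likelihood F-test, 2-sided, R 4.3.3), with Benjamini-Hochberg adjustment over all 15984 tested genes and a threshold of 0.05. The SE of a log2 fold change is its size divided by the square root of F. CPM values are TMM-scaled, and log2 CPM used a prior count of 2. Marker lists were compared by an exact permutation test over 125970 assignments. The fit was tested on counts drawn with known changes. DESeq2 1.42.0 and other scalings, filters, covariates and left-out libraries were tried as alternatives.

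The 10 enzymes and all gene lists were chosen with earlier results of these data known. Named besides the 10 were 5 pathway genes whatever their values (Bcat1, Dld, Ppm1k, Slc25a44 and Klf15), pathway genes under the threshold, the 2 with the lowest p of each comparison list and the 5 genes most like the enzymes' mean. Acad8, Esrra and Slc7a5 were added after values were seen. 1 pathway gene is counted in its list and not reported here. The motifs and the promoters printed were also chosen after values were seen.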

Additional observations from a re-analysis of the deposited data

Results flagged for a closer look

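Among 61 groups of 8 Control values examined (the 10 enzymes, 36 other pathway genes, 14 marker scores and the enzymes' mean), 1 held a library far from the others by Dixon's criterion. Ppm1k, the phosphatase gene of the dehydrogenase complex, was at 39.7 CPM in Control library 3, and the next highest Control library had 27.8 CPM. Chance alone marks about 1 in 20 such groups. Groups of 12 were not examined this way.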

How the results depend on the processing

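Over 33 alternatives, 329 of the 330 log2 fold changes of the 10 enzymes were below 0. The exception was Bckdk with the osteoclast score as covariate, at 0.0021. The number of enzymes under the threshold was 9, and 8 to 10 without single libraries, and 8 of the 10 were under it in each of the 20 fits that left out 1 library. Of all tested genes, those fits called from 988 of 16254 (without Control library 8) to 2038 of 15912 (without LOXL2_KO library 5) lower. With the osteoclast covariate the number of enzymes was 0, of all genes 0 and of other pathway genes 0. That covariate also turned the direction of other pathway genes. Among them were Mmadhc (0.13), Mcee (0.016), Bcat1 (−0.032), Slc43a2 (−0.088), Acad8 (0.076), Esrra (0.13) and Slc7a5 (−0.49). The cause of these turns was not tested. Without a covariate Esrra was at −0.21 and Slc7a5 at 0.27, and neither passed the threshold.

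The genes called numbered 3673 in all and 25 among the other pathway genes. With the muscle covariate these were 1093 and 6, and without Control libraries 6 and 8 they were 1703 and 13. Single left-out libraries gave 2551 to 4181 and 15 to 25, the 15 without Control library 8. The enzymes' median log2 fold change was −0.46 with the muscle and −0.32 with the osteoclast covariate, and −0.79 to −0.64 without single libraries. Their median pairwise r was 0.40 with library totals alone and 0.61 to 0.72 without single libraries. Library totals alone shifted the median of all genes to 0.12 and gave 2188 genes higher and 849 lower, against 1918 and 1755, with the enzymes' median at −0.58.

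The labels do not say whether replicate numbers pair the libraries. Deviations of same-numbered libraries from their group means had r from −0.36 to 0.17. Differently numbered libraries were not compared, so this does not settle the question. With a replicate block over 16 libraries 1786 of 15571 tested genes, 7 of the 10 enzymes and 14 other pathway genes were called, against 3280, 10 and 20 in the same libraries without it. Of all tested genes, 686 were called lower with the block and 1486 without it. Depth set no limit for the 10 enzymes, whose lowest count was 165.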
